A study of Caenorhabditis elegans with 4 samples.

Results

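The genomic regions described here are the 1287 regions on chromosome IV in the combined list of CES-1 binding regions from Caenorhabditis elegans embryos. They were chosen by chromosome alone and are 1287 of the 8678 regions in that list (14.8%, 95% Wilson interval 14.1 to 15.6). Binding was measured by ChIP-seq, in which chromatin is crosslinked and sheared, the protein of interest is pulled down, and the DNA that comes with it is sequenced. All 4 libraries, 2 ChIP and 2 Input, came from mixed male and hermaphrodite embryos of strain OP174, grown at 20 degrees Celsius. This strain carries the unc-119(ed3) mutation and the transgene wgIs174, made by bombardment, in which ces-1 is joined to TY1, EGFP and FLAG tags next to a copy of unc-119. The antibody was directed against GFP, so the signal is that of the tagged CES-1, in whole embryos that mix all cell types. No untagged strain and no second condition was part of the comparison, and the Input libraries enter here only as far as the authors' calls used them. The labels do not say if the ChIP libraries were grown and prepared separately, and differences between them may be technical.

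CES-1 belongs to the Snail family of transcription factors, which bind DNA through zinc fingers. In the worm it is known for blocking the programmed death of particular pharyngeal sister cells, where it acts against transcription of the cell death activator egl-1. Worm autosomes have gene-dense central parts with many essential genes, and arms that hold more repeats and recombine more often. Chromosome IV also holds the caspase gene ced-3, which executes cell death, and most of the piRNA genes of the worm, which lie in a pair of broad clusters. The lists use genome build WS220, of which no gene annotation was at hand, so regions are named by position and were not assigned to ced-3, to piRNA genes or to any other gene.

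The 3 lists analysed were the combined one and one for each ChIP replicate. Each replicate list holds 30000 regions over the genome, of which 5188 in replicate 1 and 5009 in replicate 2 lie on chromosome IV. The lists hold no read counts, so the depth is unknown. Each region carries the authors' score and a peak number that follows the order of the score, with number 1 the best. The score is tied at a ceiling at the top of each list, and the number was used to rank regions. All intervals given for shares are 95% Wilson intervals, which cover counting error only. Regions of one list are not replicates of each other, so chromosomes and parts of chromosomes are compared side by side and no test was run.

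On chromosome IV the regions were densest in the centre and thinnest on the right arm. The span of 17.49 Mb, which ends with the last region in any of the lists, was cut into 3 parts of equal length. The left arm (1 to 5830068) held 434 combined regions, the centre (5830069 to 11660136) 511 and the right arm (11660137 to 17490205) 342. The centre therefore held 39.7% of the regions (37.1 to 42.4), the left arm 33.7% (31.2 to 36.3) and the right arm 26.6% (24.2 to 29.1). In density these are 87.6, 74.4 and 58.7 regions per Mb. The order was the same in the best-ranked regions of each replicate alone, when as many regions were taken as the combined list holds. There the centre held 39.7% of the chromosome IV regions in replicate 1 and 42.3% in replicate 2, and the right arm 26.6% and 25.3%. The full replicate lists were spread another way, with more regions on each arm than in the centre. In replicate 1 the left arm held 1857, the centre 1535 and the right arm 1796, and in replicate 2 they held 1757, 1550 and 1702. The centre was thus the richest part among strong regions and the poorest among all listed regions, in both replicates.

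**Figure D1:**
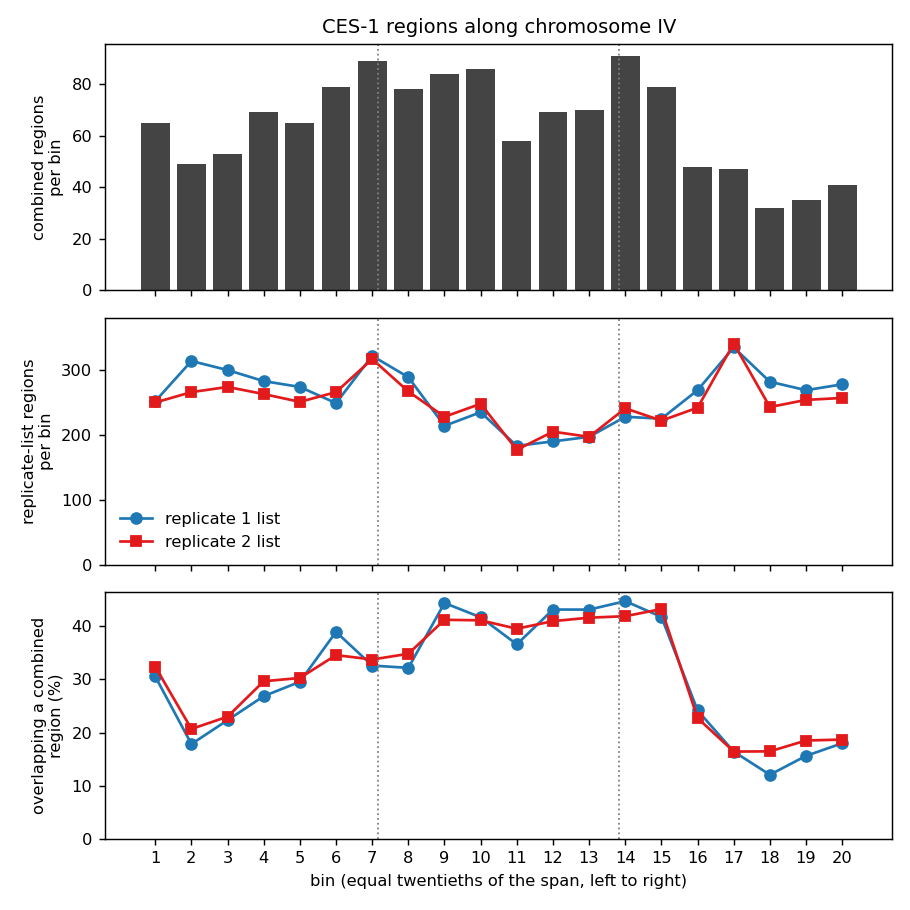
Regions along chromosome IV in 20 bins of equal length, from the left end to the right. Bars give the combined regions per bin, circles and squares the regions of the replicate lists per bin (middle) and the percentage of them that overlap a combined region (bottom), and dotted lines mark the limits of the 3 parts. In the last 5 bins the combined counts lie between 32 and 48 while the replicate lists keep 242 to 341 regions per bin.

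The lower count on the right arm came from its outer stretch. From 12000001 to 13000000 there were 85 combined regions, and from 11000001 to 12000000 there were 97. The next intervals of 1 Mb held 66, 55, 29 and 38 regions. The last, from 17000001 to the end of the span, is shorter and held 33. The replicate lists did not thin out in the same way. They held 234 and 238 regions from 12000001 to 13000000, and 310 and 289 in the next interval. From 15000001 to 16000000 they held 287 and 239, and in the interval after it 315 and 291. From 14000001 to 15000000 each of them held 397 regions, the highest count of any 1 Mb interval of the chromosome in both lists. Of these regions 16.1% in replicate 1 and 16.4% in replicate 2 overlapped a combined region, where 34.3% and 34.6% of all regions in the lists did so. From 15000001 to 16000000 the shares were 10.1% and 15.5%, the lowest of the chromosome in both lists. In the centre, from 10000001 to 11000000, 45.9% and 44.4% overlapped one.

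The outer 25% of the chromosome on the right, from 13117654 to 17490205, was set apart after these counts had been seen. It held 203 of the 1287 combined regions (15.8%), but 1433 of the replicate 1 regions (27.6%) and 1337 of the replicate 2 regions (26.7%). In replicate 1, 17.2% of its regions overlapped a combined region (15.3 to 19.2), against 34.0% (32.5 to 35.5) in the other 75% of the chromosome. In replicate 2 the shares were 18.4% (16.4 to 20.6) and 34.7% (33.2 to 36.2). The first 25% of the chromosome held nearly as many listed regions, 1423 in replicate 1 and 1304 in replicate 2, but 301 combined regions. Of its listed regions 25.1% (22.9 to 27.4) in replicate 1 and 27.1% (24.7 to 29.5) in replicate 2 overlapped a combined region. A low share was thus not particular to the right end, though it was lowest there. Overlap between the replicates, taken over all ranks, was lower in the outer stretch on the right as well. Of the replicate 1 regions in the outer stretch 54.4% overlapped replicate 2, against 66.3% elsewhere on the chromosome. For replicate 2 regions the values were 59.2% and 67.9%. In the first 25% of the chromosome they were 60.6% for replicate 1 and 64.9% for replicate 2. Over all chromosomes they were 67.2% for replicate 1 and 67.6% for replicate 2. The stretch held weaker regions, with a median replicate 1 number of 18449 against 14742 elsewhere on the chromosome and 16804 in its first 25%. Within bands of like rank the order was mixed, and the largest differences were towards lower overlap in the stretch. For numbers 15001 to 20000 the overlap was 44.0% against 54.7% in replicate 1 and 51.7% against 57.1% in replicate 2. For numbers 20001 to 25000 it was 48.1% against 46.1% in replicate 1 and 47.9% against 50.3% in replicate 2. In the band 10001 to 15000 the values were 57.5% against 65.6% and 67.4% against 69.5%. In the band 25001 to 30000 they were 35.8% against 44.1% and 44.4% against 43.3%. In the band 5001 to 10000 they were 87.1% against 87.8% and 88.2% against 87.7%. Up to number 5000 the stretch had 100% and 99.1%, against 98.9% and 97.6%. The combined regions in the stretch had ranks like those of the others. Their median peak number in the combined list was 4037, against 4242 in the rest of the chromosome, and 114 of the 203 (56.2%) were at the score ceiling, against 53.8% in the rest and 53.3% of all combined regions.

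The surplus of listed regions in the outer stretch lay among the weak ones. Of the chromosome IV regions with replicate 1 numbers 1 to 5000, 122 (16.2%) lay in it, and with numbers 5001 to 10000 it held 140 (18.3%). The share was 26.8% for numbers 10001 to 15000 and 33.9% for 15001 to 20000. It stayed at 33.8% and 32.9% for the bands 20001 to 25000 and 25001 to 30000. Replicate 2 gave 15.2% and 16.2% in the first bands, 27.0% in the third, and 31.7%, 33.1% and 33.3% in the others. All of the 122 and 114 strongest regions in the stretch, those numbered up to 5000, overlapped a combined region. Among numbers 10001 to 15000, 7.92% of those in the stretch did so in replicate 1, against 19.7% of those in the rest of the chromosome, and in replicate 2 the values were 9.82% and 18.0%. In the bands from 15001 on the shares in the stretch were also lower, from 2.26% to 4.90%, against 4.56% to 9.63% in the rest of the chromosome. In the band 5001 to 10000 they were 56.4% against 63.6% in replicate 1 and 66.4% against 69.6% in replicate 2. Among numbers up to 5000 the order was the opposite, since 97.6% and 96.4% of those in the rest of the chromosome overlapped one.

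Chromosome IV as a whole had a low share of replicate regions in the combined list. In replicate 1, 1521 of its 5188 regions overlapped a combined region (29.3%, 28.1 to 30.6), where the share over all chromosomes was 34.3%. In replicate 2 it was 1520 of 5009 (30.3%, 29.1 to 31.6), where the share over all was 34.6%. Chromosome V, which has still fewer combined regions per Mb (57.8 against 73.6), stood at 33.0% and 33.8%, and chromosome III at 33.2% and 33.9%. Chromosome II, with nearly the same number of combined regions (1294), stood at 36.8% and 36.7%. Chromosome IV had the lowest of the 6 values in each replicate. Its replicate regions overlapped the other replicate in 63.0% of cases for replicate 1 and 65.6% for replicate 2, and the shares over all chromosomes were 67.2% and 67.6%. Chromosome V had 64.4% and 65.3%, so in replicate 2 it stood slightly below IV. Regions outside the combined list stood at 210 per Mb on chromosome IV in replicate 1 and 199 per Mb in replicate 2. Chromosomes I, III and X had more, with 226, 234 and 222 per Mb in replicate 1 and 224, 225 and 233 per Mb in replicate 2. Chromosome II had fewer, 170 and 175 per Mb, as had V, with 137 and 136 per Mb. The share of chromosome IV among all listed regions was 15.04% for numbers 1 to 5000 in replicate 1 (14.1 to 16.1) and 18.9% for numbers 25001 to 30000 (17.8 to 20.0). In replicate 2 it was 15.02% (14.1 to 16.0) and 18.4% (17.4 to 19.5).

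**Figure D2:**
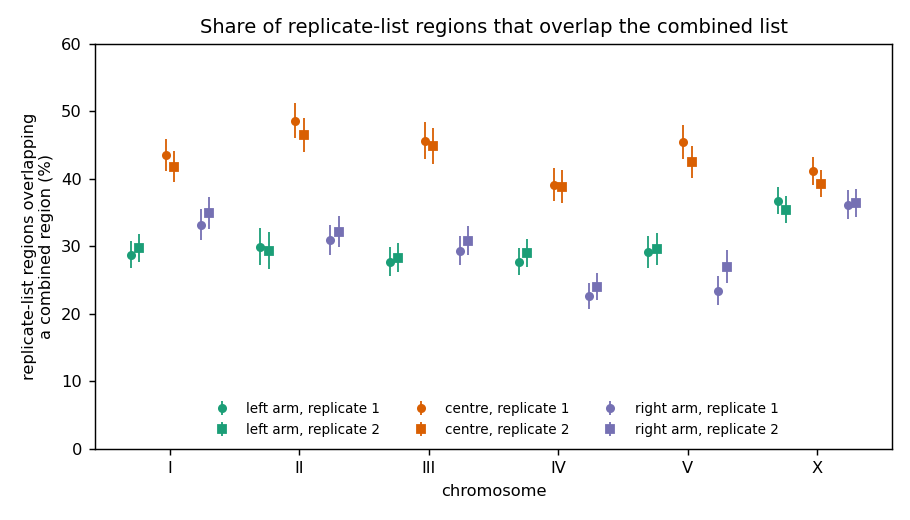
Percentage of replicate-list regions that overlap a combined region, for the left arm, centre and right arm of each chromosome. Circles stand for replicate 1, squares for replicate 2, and bars for 95% Wilson intervals. The right arm of chromosome IV has 22.6% and 24.0%, next to 23.4% and 27.0% on the right arm of V.

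The contrast between centre and arms was seen on every chromosome. On chromosome IV the centre had 39.2% in replicate 1 and 38.8% in replicate 2, the left arm 27.7% and 29.0%, and the right arm 22.6% and 24.0%. On each of the other autosomes the centre also had a higher share than either arm, between 41.8% and 48.6% in the 2 replicates. On X the centre had 41.2% and 39.3%, the left arm 36.7% and 35.4%, and the right arm 36.2% and 36.4%. The centre of chromosome IV was the lowest of the 5 autosomal centres in each replicate. The right arm of V resembled that of IV in this share, but it held fewer replicate regions, 203 per Mb in replicate 1 and 182 per Mb in replicate 2, against 308 and 292 per Mb on IV. Listed regions of the centre also had better median numbers than those of either arm on every chromosome. On IV the replicate 1 medians were 13517 in the centre, 16062 on the left arm and 17741 on the right arm. Whether rank accounts for the contrast in overlap was not tested.

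The strongest regions of chromosome IV were scattered along the chromosome. Of the 100 best-ranked regions of the combined list, 12 lay on chromosome IV, 3 of them on the left arm, 4 in the centre and 5 on the right arm. The best, at 13240497 to 13240938, was number 10 of the combined list, number 4 in replicate 1 and number 25 in replicate 2. The next, at 4585966 to 4586376 on the left arm, was number 13, and it was number 18 and number 17 in the replicates. The region at 10936819 to 10937290 in the centre was number 19, with 26 and 11 in the replicates. In these the centres of the replicate peaks lay within 8 bp of the centre of the combined region.

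The left arm also held the region at 4403911 to 4404293, number 32 of the combined list and number 33 and 38 in the replicates, and that at 2982443 to 2982823, number 95, with 78 and 133. In the centre followed 6648463 to 6649148 (number 49), 5952836 to 5953302 (number 56) and 10170773 to 10171243 (number 58). The first of these was 686 bp wide and showed a wider distance between replicates, being number 100 in replicate 1 and number 34 in replicate 2, with the replicate 1 peak centred 53 bp away. On the right arm lay 12404160 to 12404550 (number 34), 13098576 to 13098970 (number 61), 11691807 to 11692418 (number 63) and 13297678 to 13298005 (number 98). Apart from the best region and the last of these, no member of the 12 best lay in the outer 25% on the right.

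In rank the chromosome IV regions were spread much like the whole list. Their median peak number was 4229, with quartiles of 2153.5 and 6428. The medians of chromosomes I, II, III and V were 4211, 4274.5, 4242 and 4377, and that of X was 4563. At the score ceiling stood 697 of the 1287 regions (54.2%, 51.4 to 56.9), and 53.3% of all combined regions did so. By parts, 57.1% of the regions in the centre were at the ceiling (52.8 to 61.4), 51.4% on the left arm (46.7 to 56.1) and 53.2% on the right arm (47.9 to 58.4), so the intervals overlap. In the band of numbers 1 to 1000 chromosome IV had 137 regions (13.7%, 11.7 to 16.0). Its share was highest in the band 2001 to 3000, with 178 regions (17.8%, 15.6 to 20.3), and lowest in the band 4001 to 5000, with 121 (12.1%, 10.2 to 14.3). There was no steady rise or fall with rank. The centre's share within chromosome IV was 40.1% in the band 1 to 1000, 45.8% in the next, and 29.9% among numbers above 8000.

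Nearly all chromosome IV regions were found in both replicates. With an overlap of at least 1 bp, 1276 of the 1287 (99.1%, 98.5 to 99.5) overlapped both replicate lists, where 98.7% of all combined regions did so. Of the remaining regions, 5 had support in replicate 1 only and 6 in replicate 2 only, and 0 were without any. The combined list was made for these same replicates, so this is no independent check. By parts, 432 of 434 regions on the left arm, 504 of 511 in the centre and 340 of 342 on the right arm had both. When a reciprocal overlap of 50% was asked for, 1078 regions (83.8%, 81.6 to 85.7) matched both replicates, where 83.7% of all combined regions did. The loss fell on particular ranks. In the bands of combined numbers 1001 to 2000 and 2001 to 3000 only 55.5% and 60.1% of the chromosome IV regions met the 50% criterion. In the band 1 to 1000 it was 91.2%, and in the bands from 3001 to 8000 it ran from 90.7% to 96.8%.

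Width moved with these ranks. Of the 1287 regions, 881 (68.5%) were 440 bp wide, 379 were narrower and 27 wider. The narrower ones had a median number of 1487 and 95.5% of them were at the score ceiling. The regions of 440 bp had a median number of 5594 and 35.3% were at the ceiling. In the band 1 to 1000 the median width was 323 bp and in the band 1001 to 2000 it was 224 bp. In the latter band 87.7% of the regions were narrower than 440 bp, and in the band 7001 to 8000 it was 0.794%. Whether narrow width accounts for the lower reciprocal overlap was not tested.

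The regions without support in one replicate mostly had poor ranks in the combined list. In the replicate that held them their numbers ran from 1214 to 10020. The best-ranked of them, at 16491811 to 16491924 on the right arm, was only 114 bp wide. It was number 2695 of the combined list and number 1214 in replicate 1, with no overlapping region in replicate 2. The other 10 had combined numbers from 5669 to 8504. Next came 14272411 to 14272850 (number 5669, found as 3196 in replicate 2), 9146889 to 9147328 (6024, found as 7430 in replicate 2), 8498682 to 8499121 (6110, found as 5037 in replicate 1) and 8431731 to 8431953 (6207, found as 2708 in replicate 1). Of the 11 regions, 7 lay in the centre and 2 on each arm.

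The ranks of the supported regions in the replicates rose and fell together. Over the 1276 regions, Spearman's rho between the peak numbers of the replicates was 0.816, given as a description across regions that share the list they were selected into. Over the chromosomes it ran from 0.816 to 0.840. The median difference between the replicate numbers was 0.47 on the log2 scale. Replicate 1 gave the better number in 633 regions and replicate 2 in 642, so neither replicate was favoured. In 17 regions (1.33%) the numbers differed by more than 4 times, and for all chromosomes the share was 1.28%. The best region of the chromosome, at 13240497, was one of these 17, with numbers 4 and 25. Among the others farthest apart, picked after their values were seen, the region at 14494902 to 14495341 had the numbers 4396 and 24494 in replicates 1 and 2, and that at 17375546 to 17375985 had 3853 and 18138. In the opposite direction, the region at 12651795 to 12651930 was number 6910 and 489, and that at 10519856 to 10520295 in the centre number 13103 and 2010. The replicate 2 number 489 was also that of the neighbouring combined region, which was number 423 in replicate 1. Where several replicate regions overlapped, the best number was taken, so the numbers 6910 and 489 may not belong to matching peaks.

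**Figure D3:**
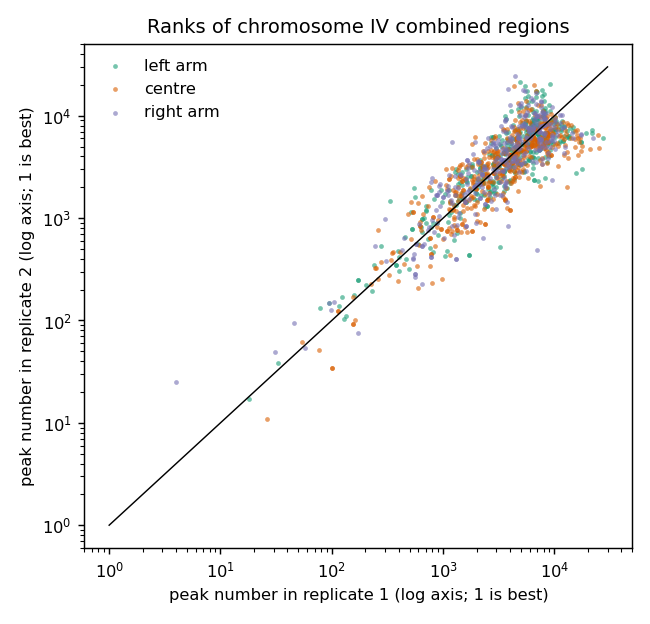
Peak numbers in replicate 1 and replicate 2 of the 1276 chromosome IV regions found in both, on log axes where 1 is the best rank, coloured by part. Points on the line have equal numbers; the 17 regions that differ by more than 4 times lie away from it, and regions of all 3 parts are mixed along it.

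In windows of 100 kb, the 174 full windows of chromosome IV held a median of 7 combined regions, with quartiles of 3 and 10. The medians of the other chromosomes ran from 5 on V to 11 on X. By parts, the median was 7 on the left arm and in the centre and 5 on the right arm. Windows with at most 2 regions numbered 8 on the left arm, 4 in the centre and 20 on the right arm. In the sparse windows of the right arm the replicate lists had a median of 24.5 and 19.5 regions, below the medians over all windows of the chromosome (30.0 and 27.5). In those of the left arm they had 10.5 and 9.5, and in those of the centre 7.0 and 5.0. The sparse windows were picked for few combined regions, so few listed regions that overlap one could lie in them.

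The densest window lay at 5900001 to 6000000, at the start of the centre, with 27 regions. These remained 26 after overlapping ones were merged, and 16 were at the score ceiling. Among the best-ranked regions of each replicate the window held 33 and 31. It also held the region at 5952836 to 5953302, one of the 12 best. The next windows were 8000001 to 8100000 with 26 regions and 3800001 to 3900000 on the left arm with 24. The windows 10500001 to 10600000 and 11700001 to 11800000 had 21 each. Those at 5100001 to 5200000 and 10300001 to 10400000 had 19 each, and those at 1800001 to 1900000, 8100001 to 8200000 and 13000001 to 13100000 had 17 each. These 10 windows together held 208 of the 1287 regions (16.2%), 115 of them (55.3%) at the ceiling, so dense windows had much the same share of ceiling regions as the chromosome. The window 3800001 to 3900000 lies next to one that was empty in all 3 lists. Of the 10 densest windows, 3 lay on the left arm, 5 in the centre and 2 on the right arm.

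**Figure D4:**
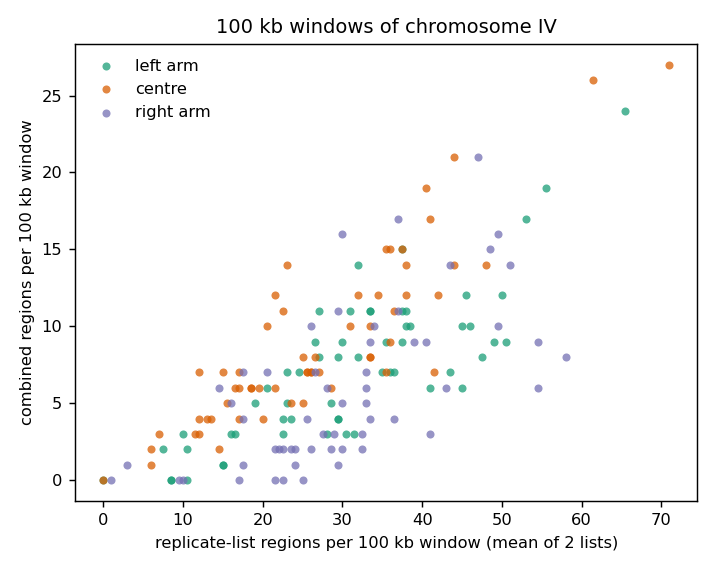
Each point is one of the 174 windows of 100 kb on chromosome IV. The horizontal axis gives the mean number of regions in the 2 replicate lists, the vertical axis the number of combined regions, and colours the part. Right-arm windows with at most 2 combined regions hold a median of 24.5 (replicate 1) and 19.5 (replicate 2) listed regions.

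Of the 174 windows, 12 held no combined region (6.90%), where 5.21% of the 999 windows of all chromosomes held none. It was 26 of 209 on chromosome V and 7 of 152 on II. The empty windows of chromosome IV were of several kinds. Windows 3900001 to 4000000 on the left arm and 9900001 to 10000000 in the centre held 0 regions in either replicate list as well. Window 12900001 to 13000000 held 1 region in each replicate, numbers 8143 and 7021. By contrast, 6 empty windows held at least 10 regions in each replicate, against 1 such window on III, 1 on V and 0 on I, II and X. These 6 were 4900001 to 5000000 (10 in replicate 1 and 11 in replicate 2), 14500001 to 14600000 (21 and 24), 15300001 to 15400000 (25 and 18), 16100001 to 16200000 (27 and 23), 16200001 to 16300000 (10 and 10) and 16700001 to 16800000 (20 and 14). All but the first lay in the outer 25% on the right. The remaining 3 windows were intermediate. They lay at 3400001 to 3500000 (12 and 5), 4100001 to 4200000 (10 and 7) and 13600001 to 13700000 (14 and 5).

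The stretches without a combined region showed the same contrast. Chromosome IV had 20 stretches over 100 kb, which together made up 17.05% of its span. Chromosome V had 31 (26.7%), II 12 (12.95%) and X 3 (2.24%). Of the 20, 13 lay on the right arm, 6 on the left arm and 1 in the centre. Within all of them the replicate lists held 482 and 432 regions, or 16.2 and 14.5 per 100 kb. The densities over the whole chromosome were 29.7 and 28.6 per 100 kb. These include regions that overlap a combined one, which the stretches exclude by construction. Listed regions outside the combined list stood at 210 and 199 per Mb over the whole chromosome, a closer baseline for the stretches. In the stretches of V the densities were 6.90 and 5.14 per 100 kb, in those of II 6.42 and 6.77, and in those of III 17.1 and 13.7. On chromosome IV the right-arm stretches had 19.5 and 17.05 per 100 kb, and those of the left arm 10.7 and 10.5.

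The longest stretch, of 329 kb, ran from 16049170 to 16377781. Its 56 regions in replicate 1 had a median number of 20371.5 and a best number of 7992, and its 51 regions in replicate 2 a median of 22195 and a best of 10266. Of the 56, 14 (25%) overlapped replicate 2, and 16 of the 51 (31.4%) overlapped replicate 1. Of all chromosome IV regions outside the combined list, 47.9% in replicate 1 and 50.8% in replicate 2 overlapped the other replicate. The regions in the stretch stood at 17.04 and 15.5 per 100 kb, below the 29.7 and 28.6 of the whole chromosome. The latter include regions that overlap a combined one, and without these the chromosome had 210 and 199 per Mb. The stretch was picked for holding no combined region, so few strong replicate regions could lie in it. On chromosome IV, 98.0% and 96.9% of the replicate regions numbered up to 5000 overlapped a combined region. When the 8678 best-ranked regions of replicate 1 took the place of the combined list, the stretch was broken by its best region and the longest empty stretch was 212 kb; with replicate 2 it was 329 kb.

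The second longest, of 212 kb, at 15259867 to 15471486, held 58 and 41 regions, with best numbers 9060 and 8882. Of these, 36.2% and 46.3% overlapped the other replicate, against 47.9% and 50.8% of all chromosome IV regions outside the combined list. The stretches at 13564713 to 13755641 (191 kb), 15814559 to 15984173 (170 kb) and 16507677 to 16656318 (149 kb) also lay in the outer part of the right arm. They held 34 and 23, 38 and 34, and 33 and 29 regions in replicates 1 and 2. The centre's only long stretch, at 9899527 to 10062749 (163 kb), was of the other kind, with 1 and 2 regions of numbers 20810 or above. Between 12855097 and 13003395 (148 kb) lay 5 and 3 regions, and it lies next to the dense window at 13000001. On the left arm, 17 and 16 regions lay between 4881216 and 5042094 (161 kb).

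**Figure D5:**
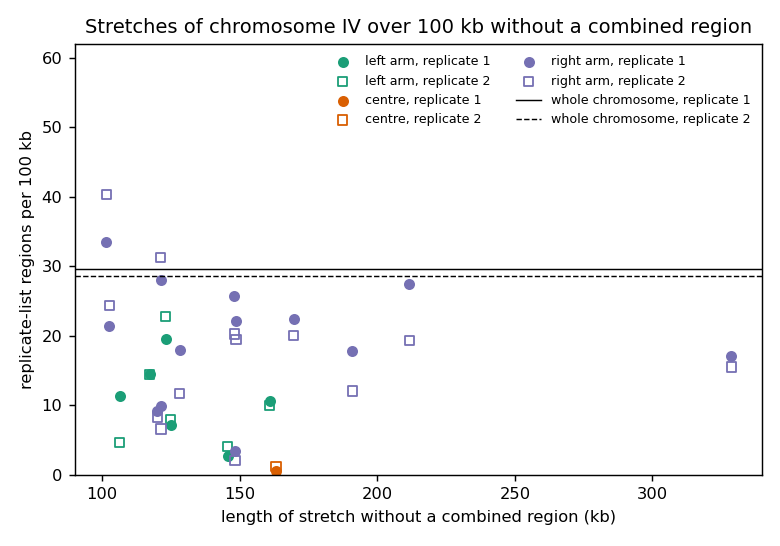
The 20 stretches of chromosome IV over 100 kb without a combined region, by length in kb and by replicate-list regions per 100 kb inside them. Filled circles stand for replicate 1 and open squares for replicate 2, colours for the part, and the lines for the density over the whole chromosome (29.7 and 28.6 per 100 kb). The lines include regions that overlap a combined one, which the stretches exclude by construction. The longest stretch, of 329 kb, has 17.04 and 15.5 regions per 100 kb, and the one in the centre 0.613 and 1.23.

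Some strong regions found in both replicates were absent from the combined list. On chromosome IV, 589 replicate 1 regions at the score ceiling overlapped a replicate 2 region at its ceiling, and 9 of them (1.53%) overlapped no combined region, where the share over all nuclear chromosomes was 0.879%. Chromosome V came close, with 7 of 516 (1.36%), and II had 6 of 606 (0.990%). Chromosomes I and III had 0.843% and 0.829%, and X had 1 of 843 (0.119%). The best-ranked of them (12724719 to 12724927) had the numbers 1243 and 1915 in the replicates and lay 28.6 kb from the nearest combined region. The region at 8289563 to 8290002 was number 1421 and 1362, with the nearest combined region 36.3 kb away. The region at 4171882 to 4172036, number 1456 and 2184, lay 38.7 kb from one and inside a stretch of 117 kb without combined regions. The next ones, at 12567207 to 12567646 (1642 and 1875) and 6998438 to 6998877 (1887 and 2006), lay 679 and 610 bp from a combined region.

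Of the chromosome IV regions, 178 (13.8%) overlapped another entry, and the share ran from 12.3% to 14.9% on the other chromosomes. The 1287 regions merged into 1197, which covered 472 kb or 2.70% of the span. Of the merged regions 86 joined 2 entries and 2 joined 3, and 9 entries repeated the interval of another. The widest merged region was 872 bp, at 14033708 to 14034579, followed by those at 4510946 to 4511767 (822 bp), 13028008 to 13028812 (805 bp, 3 entries), 707864 to 708597 (734 bp) and 12133465 to 12134172 (708 bp). The median distance between neighbouring merged regions was 4.53 kb, against 4.65 kb on V and 3.50 kb on X. Within 1 kb of another lay 31.2% of the merged regions, the lowest share of the 6 chromosomes, which ran up to 35.9% on II. Chromosome IV thus had a median spacing close to that of V although its density per Mb was higher, and it had fewer long empty stretches than V. This was not particular to IV. Chromosome III had a wider median spacing, 4.79 kb, at 96.5 regions per Mb and with 5 stretches over 100 kb.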

How the data were processed

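Regions were taken from 3 deposited peak lists, 1 per ChIP replicate and a combined one. The build, per the file headers, was WormBase WS220, and the lists' source field names SPP, a peak caller, and IDR, which compares ranks between replicates. The sources used here do not give the aligner, the versions, the thresholds or how the combined list was made. The authors' score has no stated scale, so it was used only to find ties at each list's highest value; ranks are the authors' peak numbers. Depth is unknown. Python 3.11.15, numpy 2.4.6, pandas 2.3.3, scipy 1.17.1 and matplotlib 3.10.9 were used, and the steps were tested on simulated lists. A region belonged to the window or part that held its midpoint, only full windows were counted, and lists were matched by an overlap of at least 1 bp. Where several regions of a list overlapped, the best peak number was taken, so neighbouring regions can share one. Shares within 1 kb use merged regions. Regions were named by rank, window count, length of stretch or width. The chromosome, the parts and the named items were chosen with earlier results of these data known. No test was run, since no second condition exists. Alternatives changed the list, rank limit, merging, window and overlap rule.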

Additional observations from a re-analysis of the deposited data

How the results depend on the processing

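Recomputing 8 results under 34 alternatives left 22 within their interval, or within 1.5 times for a count; 12 moved and 0 reversed. The longest empty stretch has no interval, and each of its alternatives was counted as moved. They include values of 329 and 331 kb against 329 kb in the main run. The share of regions on chromosome IV, the central share, the median per window and the median peak number stayed within their intervals under all alternatives run. Among the 4339 better-ranked combined regions, 20 windows were empty in place of 12, by construction, and the longest empty stretch was 331 kb. That stretch was 212 kb without replicate 2 and 329 kb without replicate 1. Asking for 50% reciprocal overlap lowered support in both replicates to 83.8%, a distance of up to 200 bp between centres gave 97.5%, and support was 99.8% for the better-ranked 4339 regions and 95.6% with 15000 regions per replicate list; asking for 1 replicate gave 99.5% (without replicate 2) and 99.6% (without replicate 1). The share at the score ceiling was 48.3% in the best-ranked regions of replicate 1 and 65.2% in those of replicate 2, whose ceilings are their own. Where construction does not show it, the cause was not tested. No paired analysis was possible because only ChIP lists were used and nothing was compared between sample groups. Without depth, weak regions cannot be weighed by reads.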
